A study of Mus musculus with 9 samples.

Results

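The simple epithelial keratins Krt8, Krt18 and Krt19 and the claudin Cldn11 were followed in cultured mouse sclerotome exposed to BMP4 or TGF-β1. They are 4 of the 18193 genes that the arrays measured through probe sets with a single gene symbol. All probe sets carrying one of these symbols were taken, which gave 1 each for Krt18, Krt19 and Cldn11 and 3 for Krt8, or 6 of 34945 probe sets with 1 symbol. The genes were chosen by the log2 differences between treatments on these same arrays, so their values are given below as a description and without a test.

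Each culture's RNA was amplified and hybridized to its own Affymetrix mouse array, 9 arrays in all. The cells came from wild-type mouse embryos at E11.5 and belonged to the sclerotome, the somite tissue that gives rise to vertebrae and intervertebral discs. It was cut out below the neural tube, without notochord. The cells were grown as micromass cultures, dense drops of mesenchymal cells, and exposed for 8 h to BMP4 (50 ng/ml, 3 arrays) or TGF-β1 (5 ng/ml, 3 arrays) or left untreated (3 arrays). All 3 groups shared a medium with serum, ascorbic acid and β-glycerolphosphate. The sample records describe the exposure both as starting with the medium that flooded the attached cells and as starting after a night in culture, and which of these holds for the arrays is not known. A dissected tissue can carry along neighbouring cells. The study checked freshly dissected sclerotome, before culture, by RT-PCR for T and Pax3, markers of notochord and of neural tube and myotome. Its figure legend reports neither as detected, while its text describes Pax3 as little or absent. A culture is measured as a whole, so fewer cells of a type and less RNA per cell cannot be told apart.

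The deposited values are log2 signals that were centred for each probe set: each of the 45101 probe sets, controls included, had a median of 0 across the arrays. A value of 1 therefore means 2-fold above that probe set's own median, and neither a gene's level nor the presence or absence of a marker can be read from it. For the same reason the level of one gene cannot be set against that of another. The SD over all probe sets ran between 0.177 and 0.258 on the 9 arrays, with the highest value on the second BMP4 array. With 3 arrays a group, their number sets how precise each value is. Of 8 genes that usually answer BMP signalling, 7 rose with BMP4 and 0 were called with TGF-β1 (1 at an unadjusted p under 0.05), and of 6 genes that usually answer TGF-β, 5 rose with TGF-β1 (limma, adjusted p under 0.05). Both lists were chosen with these results known.

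Keratins build the intermediate filaments of epithelial cells. A filament needs a type II keratin paired with a type I keratin, and Krt8 (type II) with Krt18 (type I) is the first such pair of the embryo, found in single-layered epithelia and also in notochord and mesothelium. Krt19 is a small type I keratin that can also pair with Krt8. Claudin 11 is a membrane protein of tight junctions, known from the myelin of oligodendrocytes, from the barrier formed by Sertoli cells in the testis and from the meninges.

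Krt8 (chr15:101996711-102004342) and Krt18 (chr15:102028216-102032026) are neighbours on mouse chromosome 15 in GRCm38.p6, with 23873 bases and 2 annotated genes between them. Krt19 lies in the type I keratin cluster (chr11:100140810-100145926) and Cldn11 at chr3:31149920-31164326. The 250 bases before the start of Krt18 and Cldn11 are shown because these genes moved together on the arrays, and those of Krt8 because its protein partners Krt18. The windows are chr15:102027966-102028215 (plus strand) for Krt18, chr3:31149670-31149919 (plus strand) for Cldn11 and chr15:102004343-102004592 (minus strand) for Krt8, from RefSeq on GRCm38.p6, written 5′ to 3′ with motif matches in capitals.
Krt18: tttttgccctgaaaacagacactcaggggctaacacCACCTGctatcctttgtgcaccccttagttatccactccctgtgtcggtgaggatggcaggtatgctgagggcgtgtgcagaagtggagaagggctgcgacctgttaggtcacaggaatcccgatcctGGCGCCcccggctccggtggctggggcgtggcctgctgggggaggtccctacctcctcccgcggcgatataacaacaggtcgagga
Cldn11: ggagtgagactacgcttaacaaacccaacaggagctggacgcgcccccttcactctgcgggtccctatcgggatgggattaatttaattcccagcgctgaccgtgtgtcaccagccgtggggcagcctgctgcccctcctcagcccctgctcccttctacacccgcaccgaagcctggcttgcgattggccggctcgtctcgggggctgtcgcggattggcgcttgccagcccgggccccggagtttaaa
Krt8: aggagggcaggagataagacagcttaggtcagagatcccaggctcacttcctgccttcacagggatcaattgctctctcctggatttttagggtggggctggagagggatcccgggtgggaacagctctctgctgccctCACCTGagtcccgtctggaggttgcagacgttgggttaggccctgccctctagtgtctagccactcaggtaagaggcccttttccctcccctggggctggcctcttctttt

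Both strands of each window were searched for 4 motifs, none of which overlaps another. These were GGCGCC, a GC-rich element bound by BMP Smads, GTCTAGAC, a Smad element, TGANTCA, an AP-1 site, and CAGGTG, the E-box read by Snail-type repressors. The Krt18 window held GGCGCC at bases -86 to -81 from the start and CAGGTG, on the other strand, at -214 to -209. The Krt8 window held CAGGTG on the other strand at -111 to -106, and the Cldn11 window held none of the 4. Of 32851 such windows in the RefSeq table, 9.59% held GGCGCC, 0.167% GTCTAGAC, 6.75% TGANTCA and 17.2% CAGGTG. A match describes letters and is not a binding site. The GC content was 60.4% for Krt18, 63.6% for Cldn11 and 58% for Krt8.

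Krt18 separated all 3 conditions. Its centred log2 values were -1.04, -1.52 and -1.17 on the BMP4 arrays, 0.55, 0.79 and 0.31 on the TGF-β1 arrays, and 0, 0.18 and -0.03 on the untreated arrays (replicates 1, 2 and 3). The order was TGF-β1, untreated, BMP4, and no array of one group reached into the range of another. The group means were -1.24 ± 0.25 with BMP4, 0.55 ± 0.24 with TGF-β1 and 0.05 ± 0.11 in untreated cultures (SD, n = 3 each). The factors thus lay on opposite sides of the untreated cultures, with the larger distance on the BMP4 side.

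The log2 difference in Krt18 between BMP4 and untreated cultures was -1.29 ± 0.15 (SE), or 2.45-fold lower, the 106th lowest difference of 45037 probe sets. For TGF-β1 over untreated cultures it was 0.50 ± 0.15, or 1.41-fold higher. Set directly against BMP4, TGF-β1 cultures were 1.79 ± 0.15 log2 units or 3.46-fold higher. Arrays of the same replicate number gave -1.04, -1.69 and -1.15 for BMP4 minus untreated and 0.55, 0.62 and 0.33 for TGF-β1 minus untreated. Each number therefore showed the same direction for each factor, and the second had the largest distance in both.

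Cldn11, the claudin, had the lowest BMP4 difference of all 45037 probe sets. Its values were -2.96, -2.10 and -2.58 with BMP4, 0.70, 1.20 and 0.40 with TGF-β1, and 0, 1.46 and -0.43 in untreated cultures. The 3 BMP4 arrays were far below all others, whereas the TGF-β1 arrays fell within the wide span of the untreated arrays. Means were -2.55 ± 0.43 with BMP4, 0.77 ± 0.40 with TGF-β1 and 0.34 ± 0.99 in untreated cultures (SD, n = 3 each). The order was TGF-β1, untreated, BMP4, and the first 2 of these did not differ beyond their spread.

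BMP4 minus untreated was -2.89 ± 0.42 log2 units for Cldn11 (SE), or 7.39-fold lower. TGF-β1 minus untreated was 0.43 ± 0.42, an error as large as the difference. Leaving out 1 array moved this value between 0.04 (without untreated replicate 3) and 0.99 (without untreated replicate 2), so its size rested on which untreated arrays were used. TGF-β1 minus BMP4 was 3.31 ± 0.42, or 9.95-fold higher, the 4th highest of all probe sets. Within replicate numbers, BMP4 minus untreated was -2.96, -3.56 and -2.14, while TGF-β1 minus untreated was 0.70, -0.26 and 0.84 and so changed sign with the number. The 9 arrays of Cldn11 spanned 4.41 log2 units, the 7th widest range of all probe sets.

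Krt19 was high with both factors. It had values of 0.07, 1.12 and -0.04 with BMP4, 0.13, 1.25 and 0 with TGF-β1, and -1.31, -1.26 and -1.08 in untreated cultures. All 6 exposed cultures lay above all 3 untreated ones, and within each factor the second array stood about 1 log2 unit above the other two. The means were 0.39 ± 0.64 with BMP4, 0.46 ± 0.69 with TGF-β1 and -1.22 ± 0.12 in untreated cultures (SD, n = 3 each). The BMP4 and TGF-β1 arrays overlapped almost fully, so these neighbours in the order did not differ beyond their spread.

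The difference in Krt19 was 1.61 ± 0.35 log2 units (SE, 3.04-fold higher) for BMP4 and 1.68 ± 0.35 (3.21-fold higher) for TGF-β1, each over the same untreated arrays. It ranked 37th from the highest of 45037 probe sets with TGF-β1 and 61st with BMP4. TGF-β1 minus BMP4 was 0.07 ± 0.35. Arrays of 1 number gave 1.39, 2.38 and 1.05 for BMP4 and 1.44, 2.51 and 1.08 for TGF-β1, so that the pairs of factors differed by only 0.06, 0.13 and 0.04. Without the 3 arrays numbered 2, a setting added after seeing the data, the differences were 1.22 and 1.26 log2 units.

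Krt8, the type II partner, showed no separation of the groups in any of its 3 probe sets, taken here in the order of their identifiers. The first read 0, -0.23 and 0.04 with BMP4, 0.01, 0 and -0.16 with TGF-β1, and 0.26, -0.02 and 0 in untreated cultures. The second read -0.16, -0.12 and 0.09 with BMP4, 0, 0.05 and 0.04 with TGF-β1, and -0.12, -0.02 and 0.08 in untreated cultures. The third read 0.03, -0.28 and 0.11 with BMP4, 0.05, 0.09 and -0.32 with TGF-β1, and -0.01, 0 and -0.07 in untreated cultures. In each of them the groups overlapped in every comparison.

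The Krt8 differences for BMP4 minus untreated were -0.14 ± 0.11, -0.04 ± 0.09 and -0.02 ± 0.13 log2 units over these probe sets (SE), and those for TGF-β1 minus untreated were -0.13 ± 0.11, 0.05 ± 0.09 and -0.03 ± 0.13. The largest of these 6 was -0.14 ± 0.11, and TGF-β1 minus BMP4 was 0.01 ± 0.11, 0.09 ± 0.09 and -0.01 ± 0.13. The SE is given beside each, and the arrays of the groups overlapped in all 9 cases. The ranges over the 9 arrays were 0.487, 0.246 and 0.429 log2 units, beside a median range of 0.467 over all probe sets. A narrow range can also come from a signal near background, which cannot be judged from centred values, so that an unchanged Krt8 level is not shown.

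**Figure D1:**
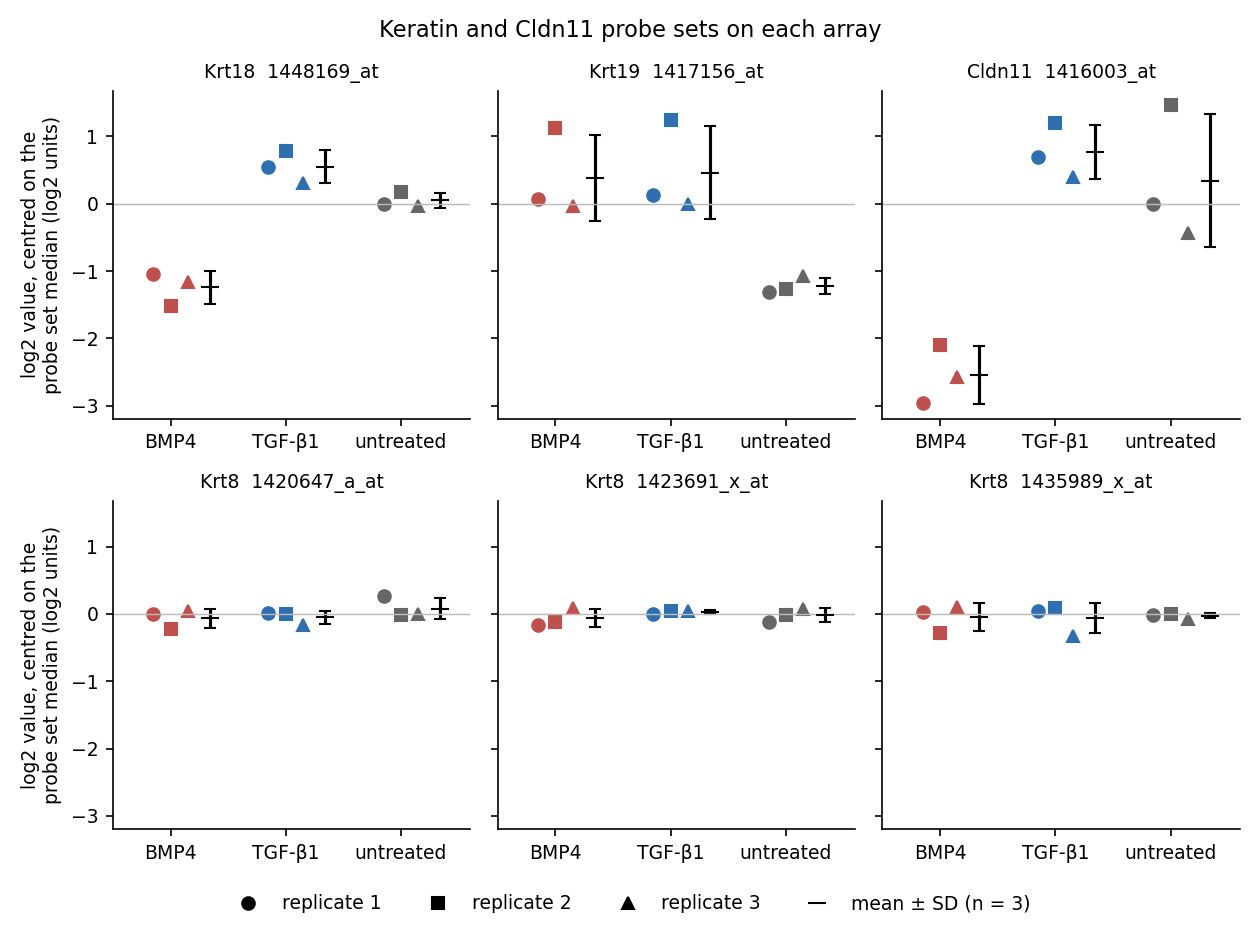
Centred log2 value (log2 units) of each of the 6 probe sets on each array, by BMP4, TGF-β1 and untreated cultures, with a marker shape for each replicate number and a dash with bars for the mean ± SD (n = 3). Krt18 falls into 3 separate groups, Krt19 is low only in untreated cultures, Cldn11 is low only with BMP4, and the Krt8 groups overlap.

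With BMP4, arrays of 3 of the 6 probe sets did not overlap those of untreated cultures, whereas 20% of all 45037 probe sets separated in this way. With TGF-β1 it was 2 of 6 against 21.8% of all probe sets, and for TGF-β1 against BMP4 it was 2 of 6 against 25.5%. The genes were chosen for these values, so nothing is read from the counts. Since both factors were compared with the same 3 untreated arrays, a low or high untreated array moves both differences. The 4 genes gave 4 different patterns: both factors high (Krt19), the factors opposed (Krt18), BMP4 low alone (Cldn11) and no separation (Krt8).

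**Figure D2:**
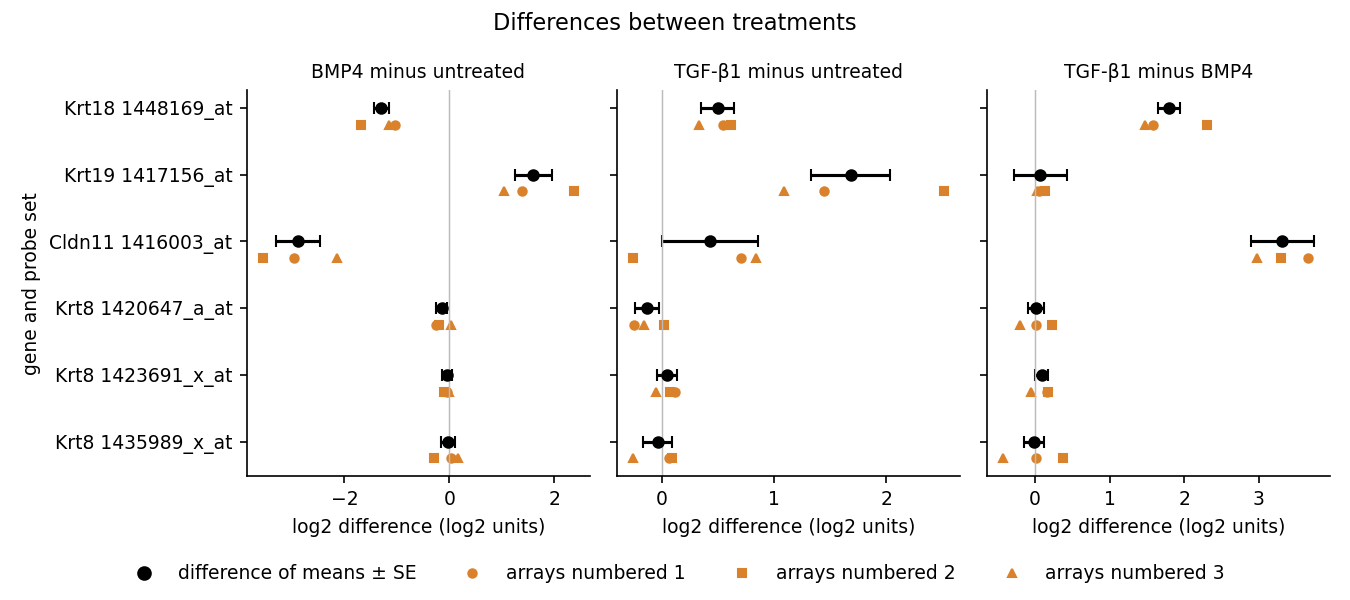
Log2 difference (x axis, log2 units, with its own scale in each panel) for each gene and probe set in 3 comparisons, as the difference of means ± SE (black) and within arrays of one replicate number (orange). The BMP4 differences of Krt18 and Cldn11 lie below 0 in all 3 numbers, and those of Krt19 lie above 0 with both factors.

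Over the 9 arrays, Krt18 and Cldn11 ran together, with a Pearson correlation of 0.92. Krt19 ran with neither, at -0.18 with Krt18 and -0.22 with Cldn11. The Krt8 probe sets stood at 0.19 to 0.41 with Krt18, and among themselves at 0.67, 0.19 and -0.08. These values describe 9 arrays that share treatments and replicate numbers, and they have no p.

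The genes most like each of the 4 over the arrays were found by the highest Pearson correlation among 18192 other genes, each by its most variable probe set. For Krt18 they were Rhoq (0.992), a small GTPase, Fstl1 (0.990), a secreted glycoprotein, Il17rd (0.990), an inhibitor of FGF signalling, Sh3glb2 (0.990) and Meox1 (0.989), a homeobox gene of the somite. Meox1 had values of -1.31, -1.85 and -1.55 with BMP4, 0.49, 0.64 and 0.58 with TGF-β1, and -0.09, 0.20 and 0 in untreated cultures, the same 3 separate groups as Krt18. Rhoq moved on a smaller scale, at -0.49, -0.60 and -0.48 with BMP4, 0.34, 0.39 and 0.22 with TGF-β1, and 0, 0.17 and -0.03 in untreated cultures. In all, 257 genes correlated with Krt18 above 0.9.

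For Cldn11 the nearest were Epha4 (0.992), an ephrin receptor, Gkap1 (0.988), Tgfbr2 (0.987), the type II TGF-β receptor, Bex4 (0.986) and Lhfp (0.986). Tgfbr2 had values of -1.16, -1.16 and -1.13 with BMP4, 0.38, 0.68 and 0.26 with TGF-β1, and 0, 0.61 and 0 in untreated cultures. As with Cldn11, its second untreated array was the highest of the untreated ones. It lay among the TGF-β1 arrays for Tgfbr2 and above them for Cldn11. The number of genes above 0.9 was 211 for Cldn11.

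Krt19 had fewer close neighbours, with 45 genes above 0.9. The nearest were P4ha2 (0.981) and Plod2 (0.955), which hydroxylate collagen chains, Lypd1 (0.980), Sema3c (0.970), a secreted semaphorin, and Adm2 (0.958), a peptide hormone. P4ha2 had values of 0.08, 0.42 and 0 with BMP4, 0.10, 0.36 and -0.09 with TGF-β1, and -0.50, -0.45 and -0.54 in untreated cultures. It shared with Krt19 both the low untreated arrays and the high second array of each factor. Only 1 gene, Micos10 (0.916), came above 0.9 with Krt8, where the Krt8 probe set compared spanned only 0.429 log2 units.

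**Figure D3:**
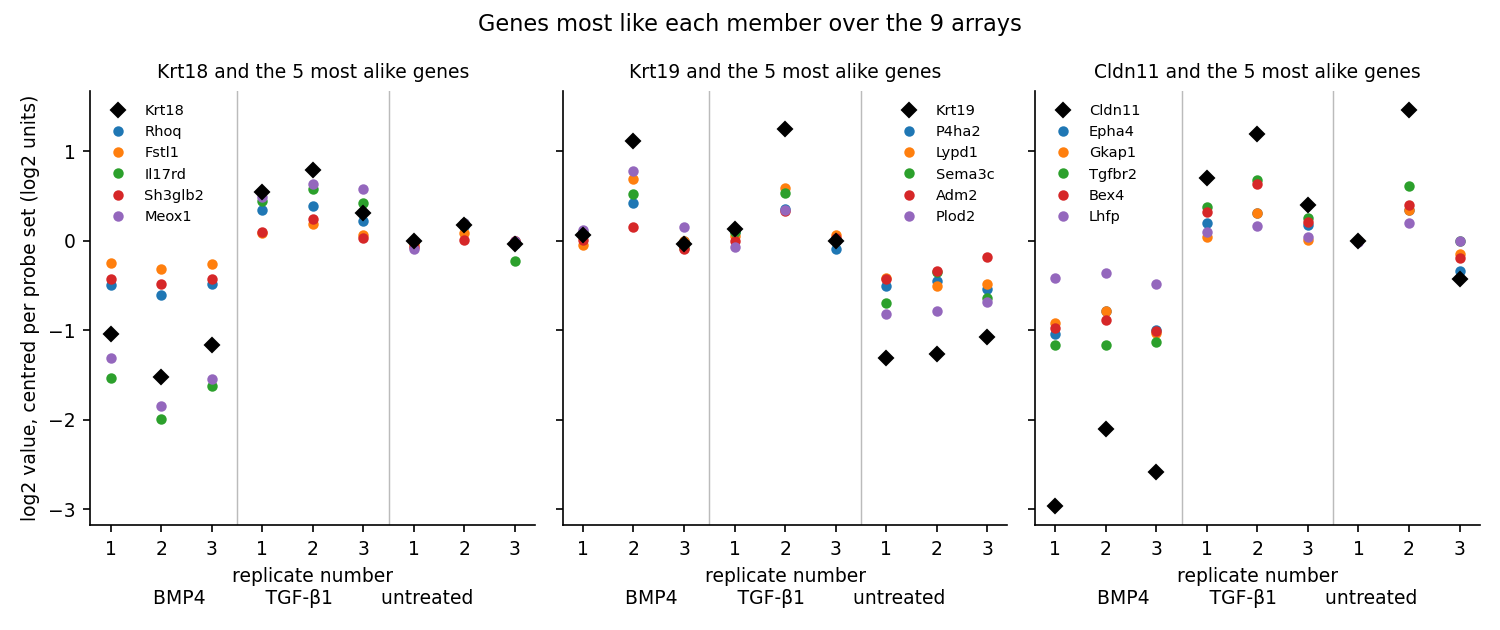
Centred log2 value (log2 units) of Krt18, Krt19 and Cldn11 (black diamonds) and of the 5 genes most like each (coloured circles) on the 3 BMP4, 3 TGF-β1 and 3 untreated arrays. The Krt19 panel shows the second array of each factor above the other two, and the Krt18 and Cldn11 panels show the BMP4 arrays lowest.

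The other keratins gave few calls. Of 44 other keratins, 0 rose and 0 fell with BMP4 at an adjusted p under 0.05 (limma), 3 had an unadjusted p under 0.05, 2 were called with the replicate block, and the median log2 difference was 0.03 beside 0.00 for all genes, of which 7.96% were called. With TGF-β1, 1 rose and 0 fell (6 with an unadjusted p under 0.05), at a median of 0.07 beside 0.01 for all genes, of which 6.75% were called. Krt19 and Krt18 lay outside the span of these other keratins with BMP4, which reached from -0.21 to 0.78 log2 units. The 1 called keratin was Krt33a, a hair keratin, at 0.39 ± 0.09 (SE, adjusted p = 0.038). Its call was lost when any single array other than untreated replicate 3 was left out, at adjusted p of 0.053 to 0.13. With the replicate number as a block, which the arrays of this comparison allowed, 3 keratins were called with TGF-β1, and without the 3 arrays numbered 2 it was 0. The block raised calls over all probe sets too, from 2449 to 4069 with BMP4 and from 1993 to 4029 with TGF-β1. The shares of all genes given beside each list are those of the main fit.

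Of 19 other claudins, 0 were called with BMP4 (limma, 0 with an unadjusted p under 0.05), against 7.96% of all genes. Their BMP4 differences reached from -0.39 to 0.51 log2 units, where Cldn11, chosen for its values, was at -2.89. With TGF-β1, 2 rose and 0 fell (10.5%, against 6.75% of all genes), Cldn1 and Cldn7, both claudins of epithelial barriers. Cldn1 had 1.30, 1.22 and 1.05 with TGF-β1 and 0.09, -0.25 and 0 in untreated cultures, a difference of 1.24 ± 0.21 (SE, 2.36-fold higher, adjusted p = 0.011). Of its 4 probe sets 2 were called, and the call was lost without TGF-β1 replicate 1 (adjusted p = 0.052). Cldn7 had 0.40, 1.24 and 0.61 with TGF-β1 and -0.04, -0.11 and 0 in untreated cultures, a difference of 0.80 ± 0.18 (adjusted p = 0.036). That call was lost without BMP4 replicate 1, TGF-β1 replicate 3 or any untreated array, at adjusted p of 0.061 to 0.10.

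Tight junction partners are the scaffold and polarity proteins that tie claudins to the cell cortex. Of 24 measured, 0 rose and 4 fell with BMP4 (16.7%, against 7.96% of all genes). With TGF-β1, 0 rose and 3 fell (12.5%, against 6.75%). Set against BMP4, 5 were higher and 1 lower with TGF-β1 (25%, against 10.1%). The medians were -0.11, 0.04 and 0.08 log2 units beside 0.00, 0.01 and 0.01 for all genes. Amot, a scaffold that binds polarity proteins, fell with both factors, by 0.91 with BMP4 (adjusted p = 0.00016) and by 0.66 with TGF-β1 (adjusted p = 0.0014). Cgnl1, a junction protein of the cingulin family, fell by 0.68 with BMP4 (adjusted p = 0.011) and was 0.12 with TGF-β1 (adjusted p = 0.67), the same side of 0 as Cldn11 for each factor. Pard6b (-0.57 with BMP4, adjusted p = 0.039) and Patj (-0.54 with TGF-β1, adjusted p = 0.049), both polarity proteins, each lost the call without any 1 of 7 arrays. The exceptions were BMP4 replicate 1 and untreated replicate 3 for Pard6b, and TGF-β1 replicate 2 and untreated replicate 3 for Patj. The adjusted p without those 7 arrays was 0.053 to 0.13 for Pard6b and 0.069 to 0.16 for Patj. Without the 3 arrays numbered 2, 1 of these partners was called with BMP4 and 1 with TGF-β1, and with the replicate block 5 were called with TGF-β1.

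Desmosomes anchor keratin filaments at the membrane. Of 19 desmosome genes and keratin linkers, 0 rose and 1 fell with BMP4 (5.26%, against 7.96% of all genes). With TGF-β1 limma called 0, against 6.75% of all genes, and 2 had an unadjusted p under 0.05. The gene that fell was Jup, plakoglobin, at -0.53, -1.01 and -0.58 with BMP4 and 0.10, 0 and -0.15 in untreated cultures. With the replicate block, 2 of the 19 were called with BMP4. The Jup difference was -0.69 ± 0.13 log2 units (SE, adjusted p = 0.012), and without the 3 arrays numbered 2 the call was lost (adjusted p = 0.060).

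Epithelial identity genes were mixed. Of 25 measured, 1 rose and 2 fell with BMP4 (12%, against 7.96% of all genes). With TGF-β1 limma called 0, against 6.75% of all genes, with 3 at an unadjusted p under 0.05. The medians were -0.03 and 0.13 log2 units. Grhl1, a transcription factor of surface epithelium, rose by 1.55 ± 0.24 (SE, adjusted p = 0.0046) with BMP4. Spint2, an inhibitor of membrane serine proteases, fell by 0.94 with BMP4 (adjusted p = 0.019), and the call was lost without BMP4 replicate 1 (0.057) or 2 (0.078). Cdh3, P-cadherin, fell by 0.65 with BMP4 (adjusted p = 0.025), and this was lost without any BMP4 array or untreated replicate 1 or 2 (0.065 to 0.080) and after quantile normalization (0.054). With TGF-β1, Cdh3 was 0.50 ± 0.14 (adjusted p = 0.086, or 0.0093 with the replicate block, which called 2 genes of the list). The defining epithelial genes Cdh1 and Epcam, which code for adhesion proteins, were at -0.11 and -0.20 with BMP4 (adjusted p = 0.81 and 0.59) and at -0.13 and 0.31 with TGF-β1 (0.70 and 0.32).

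Several transcription factors of the epithelial-mesenchymal transition, which repress epithelial genes, were called. Of 10 measured, 1 rose and 3 fell with BMP4, and 0 rose and 3 fell with TGF-β1, at medians of -0.02 and -0.27 log2 units. These were 40% with BMP4 and 30% with TGF-β1, against 7.96% and 6.75% of all genes. Snai1 was 0.96, 1.11 and 0.94 with BMP4, -0.40, -0.89 and -0.51 with TGF-β1, and 0.01, -0.32 and 0 in untreated cultures. Its 3 groups were separate, as for Krt18, and stood in the opposite order, where a link between the genes was not tested. It rose by 1.11 ± 0.14 with BMP4 (SE, adjusted p = 0.0015), and with TGF-β1 it was -0.49 ± 0.14 (adjusted p = 0.077, or 0.040 with the replicate block). Snai2 fell by 1.23 with TGF-β1 (adjusted p = 0.011) and was 0.75 with BMP4 (adjusted p = 0.072). The Snai2 value with BMP4 passed the threshold with the replicate block (0.0065), in the fit of those groups alone (0.023) and after quantile normalization (0.030). It also passed without TGF-β1 replicate 2 (0.0094) and without the 3 arrays numbered 2 (0.012). Zeb2 fell by 0.84 with TGF-β1 (adjusted p = 0.0018), and Twist1 fell by 0.79 with BMP4 (adjusted p = 0.0010). With BMP4, Zeb2 lay above untreated cultures, at an adjusted p of 0.076, or 0.045 with the replicate block and 0.040 without BMP4 replicate 1.

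Of 16 other intermediate filament genes, 1 rose and 2 fell with BMP4 (18.8%, against 7.96% of all genes), and 0 rose and 1 fell with TGF-β1 (6.25%, against 6.75%). Nefl, the light neurofilament chain, fell by 1.68 with TGF-β1 (adjusted p = 0.0083), and its BMP4 value of -1.17 (adjusted p = 0.033) lost the call without any 1 of 6 arrays (0.051 to 0.10), all but BMP4 replicates 1 and 3 and TGF-β1 replicate 2. Nes (-0.47) and Lmna (0.50), called with BMP4 at adjusted p of 0.041 and 0.040, each lost the call without any 1 of 7 arrays. The arrays without effect were BMP4 replicate 3 and TGF-β1 replicate 2 for Nes and BMP4 replicate 2 and untreated replicate 3 for Lmna. Fitted on the 2 groups alone, 0 of the 16 were called with BMP4, and with the replicate block 3 were called with TGF-β1. Vim, the filament protein of mesenchyme, was -0.05 ± 0.13 with BMP4 and -0.19 ± 0.13 with TGF-β1 (adjusted p = 0.91 and 0.46).

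**Figure D4:**
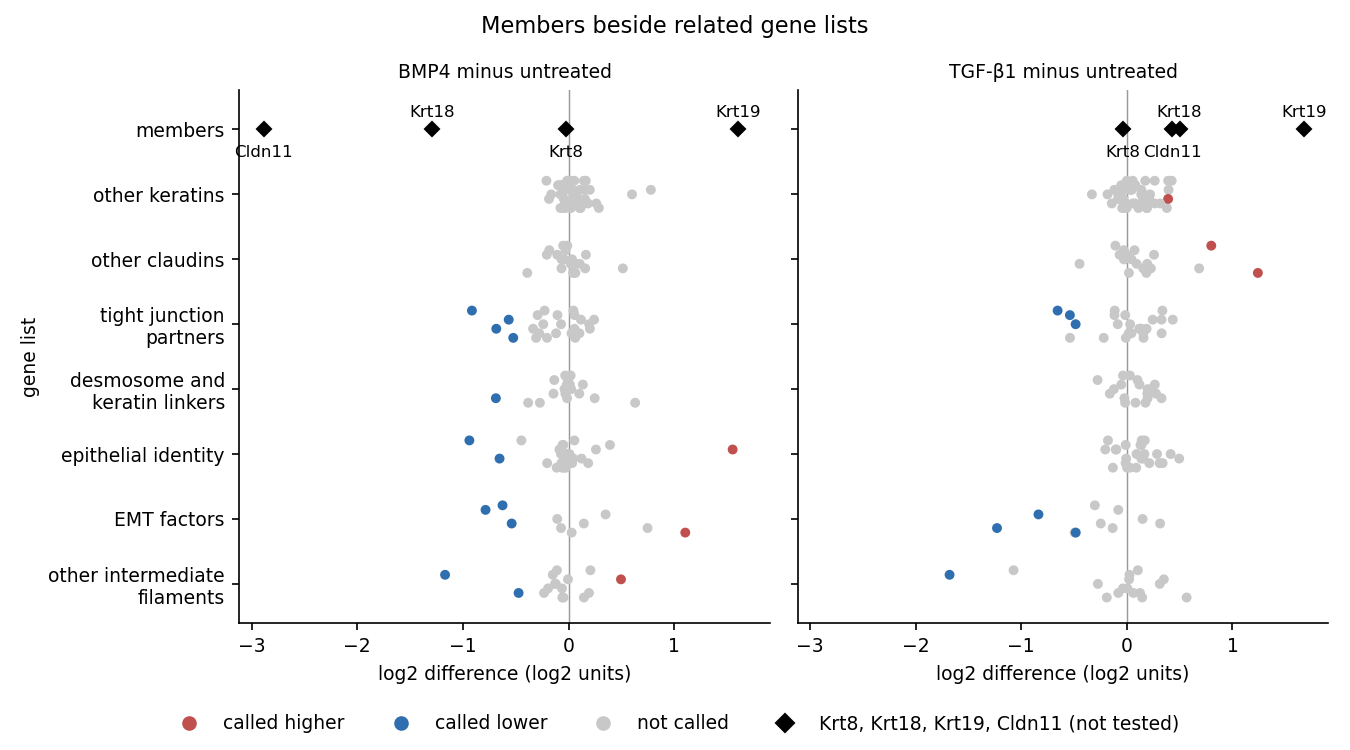
Log2 difference (x axis, log2 units) for BMP4 minus untreated and TGF-β1 minus untreated, with the 4 genes in the top row (black diamonds, not tested) and 7 related gene lists below, 1 point per gene, coloured where the adjusted p was under 0.05. Cldn11 lies below every other claudin with BMP4, and Krt19 lies above every other keratin with both factors.

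Markers of other cells that a sclerotome dissection could hold were set beside the 4 genes. Krt8, Krt18 and Krt19 are also notochord genes. Of 7 notochord genes, limma called 0 with BMP4 (0 at an unadjusted p under 0.05) and 0 with TGF-β1 (2 at an unadjusted p under 0.05). Of all genes, 7.96% were called with BMP4 and 6.75% with TGF-β1. With the replicate block, which raised calls over all probe sets as well, 2 notochord genes were called with BMP4 and 2 with TGF-β1. Tbxt and Noto, which also define notochord, were not analysed here. Shh, which defines notochord and floor plate, was at 0.12 with BMP4 and 0.11 with TGF-β1 (adjusted p = 0.74 and 0.73). Car3 was the farthest of the list from 0, at -0.66 with BMP4 and -0.91 with TGF-β1 (adjusted p = 0.34 and 0.15, or 0.0060 and 0.0018 with the replicate block). Foxa1, named after its value was seen, had the highest BMP4 difference of the list, at 0.59 ± 0.29 (SE, adjusted p = 0.35), and was -0.07 with TGF-β1. Krt19 was above 0 with both.

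Mesothelium, which also holds these keratins, had 0 genes that rose and 3 of 10 that fell with BMP4. That was 30%, against 7.96% of all genes, at a median of -0.19 log2 units. Wt1, a transcription factor of mesothelium and kidney, fell by 1.42 ± 0.14 (SE, adjusted p = 0.00050). It was the lowest of the 10, and the highest was at 0.09 log2 units. Bnc1 fell by 1.24 (adjusted p = 0.016, lost without BMP4 replicate 2 at 0.069 and in the fit of those groups alone at 0.061), and Rspo1 by 1.10 (adjusted p = 0.00085). With TGF-β1, 0 rose and 1 fell (10%, against 6.75% of all genes), Rspo1 by 0.83 (adjusted p = 0.0059). These falls with BMP4 moved with those of Krt18 and Cldn11 and against the values of Krt19, and their part in them was not tested.

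Meningeal mesenchyme is a tissue that holds claudin 11. Of its 11 genes, 0 rose and 3 fell with BMP4 (27.3%, against 7.96% of all genes), at a median of -0.20 log2 units. Crabp2, a retinoic acid binding protein, was -1.58, -1.77 and -1.91 with BMP4, -0.01, 0.70 and 0 with TGF-β1, and 0.50, 0.86 and 0.43 in untreated cultures. Like Cldn11 it was lowest on the 3 BMP4 arrays, with a difference of -2.34 ± 0.19 (SE, adjusted p = 0.00016). Aldh1a2, which makes retinoic acid, fell by 1.14 (adjusted p = 0.0066), and Foxd1, a forkhead factor, by 0.85 (adjusted p = 0.00090). With TGF-β1, Aldh1a2 (-0.88, adjusted p = 0.028) and Foxd1 (-0.44, adjusted p = 0.031) fell too, but the first lost its call without BMP4 replicate 1 or any TGF-β1 array (0.051 to 0.10). Foxd1 lost its call without BMP4 replicate 1, any TGF-β1 array or untreated replicate 1 or 2 (0.052 to 0.095). The main fit called 2 of the 11 with TGF-β1 (18.2%, against 6.75% of all genes). In the fit of those groups alone 0 of the 11 were called with TGF-β1. Cldn11 was at 0.43 ± 0.42 in that comparison, and the part of these cells in its values was not tested.

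Of 10 oligodendrocyte genes, the other well-known place of claudin 11, 1 rose and 0 fell with BMP4 (10%, against 7.96% of all genes). It was Mbp, the myelin basic protein gene, at 2.10 ± 0.31 log2 units (SE, adjusted p = 0.0035). The list median with BMP4 was -0.002 log2 units, and the lowest member was at -0.36. The part of these cells in the values of Cldn11 was not tested. With TGF-β1, 0 rose and 1 fell (10%, against 6.75% of all genes), Cnp at -0.59 (adjusted p = 0.037). That call was lost without any 1 of 7 arrays (0.058 to 0.13), all but BMP4 replicate 2 and untreated replicate 3.

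Endothelium, neural tube and myotome, whose cells lie next to the sclerotome, had 10%, 11.1% and 20% of their genes called with BMP4, against 7.96% of all genes. With TGF-β1 the shares were 10%, 0% and 0%, against 6.75%. Of 10 endothelial genes 1 rose with both factors, Erg, a transcription factor that the forming disc also expresses. The other 9 gave 0 calls (limma; over all 10, an unadjusted p under 0.05 came 2 times with BMP4 and 1 time with TGF-β1), and the list medians were 0.01 with BMP4 and -0.03 with TGF-β1. Erg rose by 1.29 with BMP4 (adjusted p = 0.017) and by 1.08 with TGF-β1 (adjusted p = 0.045). The BMP4 call was lost without BMP4 replicate 2 or untreated replicate 1 or 3 (0.055 to 0.060). The TGF-β1 call was lost without any 1 of 7 arrays (0.058 to 0.13), the exceptions being BMP4 replicate 2 and untreated replicate 2. With the replicate block, 2 endothelial and 3 neural tube genes were called with BMP4. Of 9 neural tube genes, 1 was called with BMP4, Sox2, which rose by 1.44 (adjusted p = 0.0029). The list median with BMP4 was -0.02 log2 units, and its lowest member was at -0.67. With TGF-β1 limma called 0 neural tube genes (2 at an unadjusted p under 0.05, 2 called with the replicate block). Sox2 was the highest of the list with TGF-β1, at 0.49 log2 units (adjusted p = 0.23, or 0.034 with the replicate block). Of 10 myotome genes, Myf5 rose by 0.83 with BMP4 (adjusted p = 0.0021) and Mymk fell by 0.45 (adjusted p = 0.022). The Mymk call was lost without BMP4 replicate 2 or 3 or untreated replicate 1 or 2 (0.054 to 0.091). With TGF-β1 limma called 0 myotome genes (5 at an unadjusted p under 0.05, 4 called with the replicate block, Myf5 at 0.0094). Their TGF-β1 differences were all below 0, between -0.43 and -0.06, at a median of -0.25 log2 units beside 0.01 for all genes. The part of any of these cells in the values of Krt18, Krt19 and Cldn11 was not tested. Summed levels of these marker lists cannot be given, since centring removed the levels.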

How the data were processed

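The authors processed the Affymetrix arrays with RMA per the labels (version not given in the sources used here), and the deposited table holds log2 values for 45101 probe sets, centred per probe set. The methods name GeneSpring with default settings. Centring removes levels, so no filter on low signal was possible. The 64 control probe sets were left out, and 45037 were tested. Of these, 34945 carried 1 symbol in the platform annotation, 932 several and 9160 none. Entrez identifiers of 34741 were found in the RefSeq table, and 0 symbols changed. A gene is represented by its most variable probe set over the 9 arrays. The members, lists and rules were chosen with earlier results of these data known.

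A model of 3 groups was fitted to all 9 arrays with limma 3.58.1 (R 4.3.3, 6 residual and 4.01 prior degrees of freedom, median residual SD 0.129), two-sided, with Benjamini-Hochberg adjustment over 45037 probe sets and a threshold of 0.05. The script was tested on simulated data. Tables and figures were made in Python 3.11.15. No pair of arrays was identical (0 pairs). The study repeated the whole experiment for each replicate. The main fit holds no term for the repeat, so its p values rest on the spread between the arrays of a group. Any shift that a repeat gave to all groups counts as part of that spread.

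Named genes were, in each list, up to 4 genes called against untreated cultures with the largest differences, or otherwise the gene farthest from 0, and the 5 genes most like each of the 4. Vim, Shh, Cdh1 and Epcam were added as defining markers. Deviations from group means of same-numbered arrays correlated at 0.14, 0.49 and 0.28 between TGF-β1 and untreated cultures and at 0.29, 0.50 and 0.38 between TGF-β1 and BMP4, which the pairing rule (all over 0.1) accepts. Between BMP4 and untreated they were -0.05, 0.50 and 0.24, which falls short of that rule. Some arrays of different numbers passed 0.1 too, at 0.20 (TGF-β1 3 with untreated 1) and 0.36 (BMP4 3 with untreated 1). Most pairs of different numbers were below 0. The rule thus does not show that equal numbers are 1 repeat. The study repeated the whole experiment, but the labels do not say that a number marks the same repeat in every group. Results with the block are therefore given for each comparison, though not for every named gene. Alternatives were a replicate block, leaving out each array, the fit of 2 groups, quantile normalization, median centring of arrays, the mean of a gene's probe sets and the methods' test with unequal variances.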

Additional observations from a re-analysis of the deposited data

How the results depend on the processing

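Against 2449 probe sets called for BMP4 minus untreated, 1993 for TGF-β1 minus untreated and 3110 for TGF-β1 minus BMP4, the replicate block gave 4069, 4029 and 5252. The pairing check was met by both comparisons with TGF-β1 and missed by 1 of 3 pairs between BMP4 and untreated cultures. Fitting the 2 groups alone gave 1617 for BMP4 and 1172 for TGF-β1 over untreated, and leaving out the 3 arrays numbered 2, chosen after seeing the data, gave 1200, 888 and 1819. The methods' test (at least 2-fold, unadjusted) gave 433, 253 and 543 and, after Benjamini-Hochberg adjustment, 0, 0 and 11. These alternatives use fewer arrays, another variance or another threshold. Leaving out 1 array gave 1431 (without BMP4 replicate 2) to 2262, 867 (without TGF-β1 replicate 3) to 2053, and 1877 (without BMP4 replicate 1) to 3330. Counts below the main one by over 1.5 times also came without BMP4 replicate 1 (1511, BMP4 minus untreated) and, for TGF-β1 minus untreated, without TGF-β1 replicate 1 (903) or 2 (1194) and without untreated replicate 1 (982) or 2 (1061), and, for TGF-β1 minus BMP4, without BMP4 replicate 2 (1932) or TGF-β1 replicate 3 (1927).

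Of 237 genes in the lists, 34, 20 and 37 were called, and 23 to 35, 10 to 25 and 28 to 41 without 1 array. Without the 14 response genes, which were chosen because they respond, 26, 15 and 26 of 223 were called (11.7%, 6.73% and 11.7%, against 7.96%, 6.75% and 10.1% of all genes). For TGF-β1 minus untreated they were 38 with the replicate block and 13 in the fit of 2 groups. Leaving out 1 array moved BMP4 minus untreated between -1.39 and -1.16 for Krt18, 1.24 and 1.82 for Krt19, -3.27 and -2.33 for Cldn11, and -0.19 and -0.05, -0.12 and 0.01, and -0.10 and 0.10 for the Krt8 probe sets. TGF-β1 minus untreated lay between 0.38 and 0.62 for Krt18, 1.28 and 1.91 for Krt19, 0.04 and 0.99 for Cldn11, and -0.18 and -0.04, -0.00 and 0.10, and -0.11 and 0.10 for Krt8. TGF-β1 minus BMP4 lay between 1.66 and 1.91 for Krt18, -0.32 and 0.44 for Krt19, 3.10 and 3.54 for Cldn11, and -0.07 and 0.07, 0.04 and 0.17, and -0.13 and 0.12 for Krt8. Without the 3 arrays numbered 2 it was 1.53 for Krt18 and -0.20 for the third Krt8 probe set, where the cause was not tested. For the named list genes, no difference called in the main fit changed sign under the alternatives checked (0 cases). The 4 genes were chosen by their differences, so no call is used for them. Without 1 array, TGF-β1 minus BMP4 of Krt19 and several small Krt8 differences changed sign. Single genes were not checked with the mean of probe sets or the methods' test, nor the 4 genes in the fit of 2 groups. Signs of the other called probe sets were not checked. Background correction and a filter on dim probes could not be tried, since levels are lost.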
